A study of Mus musculus with 3 samples.

Results

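In livers of mouse embryos aged 13.5 days, 17237 distal stretches of open chromatin had a peak in replicates 2 and 3 and none in replicate 1, the library with the fewest peaks. They were 61.0% of the 28262 distal regions found in both of those libraries, and part of 131881 regions in all. The assay was DNase-seq, which sequences the ends left where the nuclease DNase I has cut open chromatin. The 3 libraries formed 1 group: wild-type mice of strain C57BL/6N,129 carrying an A20 yeast artificial chromosome, present as a single copy, with no treatment and no control tissue. All 3 libraries carry the same donor label but different biosample labels, so the extent to which their differences were technical is unknown. The regions were obtained by merging peaks of the 3 libraries that overlapped by at least 1 bp. A region was kept if it lay more than 1000 bp from every transcription start site (TSS) in the annotation. The kept regions were ranked by the lower of their signal percentiles in replicates 2 and 3, so that rank 1 was strong in both. The peaks and signals therefore chose and ordered these regions, and both are given as a description with no test. The 11025 distal regions with a peak in all 3 libraries, called shared distal regions, are set beside them.

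Distal open chromatin marks enhancers and insulators, which act on genes at a distance. The fetal liver at this stage is the main site of red cell formation, and its hepatoblasts, the precursors of liver cells, form beside the blood cells. GATA1, with its cofactor FOG1 (the product of Zfpm1), the KLF1 protein and the TAL1 complex on E-boxes, acts at the enhancers of red cell genes. The CTCF protein binds insulators and the bases of chromatin loops, at sites that are open in most cell types. A factor bound to DNA shields it from DNase I, and such a shielded stretch inside a peak is called a footprint.

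The sequences below are from 7 of the regions without a peak in replicate 1, printed because each holds a searched motif inside a footprint. The regions nearest to Foxo3, Fam210b, Nprl3 and Adam10 are among the 20 chosen by the highest lower signal percentile in replicates 2 and 3, and these 4 were picked from the 20 after their motifs were seen. The Zfpm1, Glrx5 and Runx1 regions come from the erythroid, haem and iron, and blood stem and progenitor lists. Each is the best-ranked region of at most 300 bp, with such a motif, among the 3 genes of its list with the most absent regions. Capitals mark matches, on either strand, that overlap a footprint of replicate 2 or 3. They are read 5′ to 3′ on the plus strand of the RefSeq copy of the mm10 assembly.
Foxo3 chr10:42265081-42265320: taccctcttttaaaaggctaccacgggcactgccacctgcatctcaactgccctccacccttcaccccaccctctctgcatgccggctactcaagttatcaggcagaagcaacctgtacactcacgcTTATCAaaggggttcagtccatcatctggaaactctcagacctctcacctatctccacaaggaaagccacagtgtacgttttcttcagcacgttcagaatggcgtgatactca
Fam210b chr2:172348421-172348640: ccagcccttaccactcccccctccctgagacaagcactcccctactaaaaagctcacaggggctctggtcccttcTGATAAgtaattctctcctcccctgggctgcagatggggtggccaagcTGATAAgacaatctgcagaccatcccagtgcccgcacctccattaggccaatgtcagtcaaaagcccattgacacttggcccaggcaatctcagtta
Nprl3 chr11:32256161-32256420: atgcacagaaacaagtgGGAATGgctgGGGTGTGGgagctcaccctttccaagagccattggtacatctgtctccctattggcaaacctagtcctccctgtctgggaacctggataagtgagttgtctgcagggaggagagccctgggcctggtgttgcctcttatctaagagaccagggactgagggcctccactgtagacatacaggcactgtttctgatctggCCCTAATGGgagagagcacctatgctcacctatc
Adam10 chr9:70669301-70669500: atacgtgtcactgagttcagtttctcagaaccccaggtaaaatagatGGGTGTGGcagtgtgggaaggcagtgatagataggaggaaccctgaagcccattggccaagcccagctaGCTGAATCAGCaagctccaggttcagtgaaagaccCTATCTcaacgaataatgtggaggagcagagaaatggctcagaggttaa
Zfpm1 chr8:122294241-122294540: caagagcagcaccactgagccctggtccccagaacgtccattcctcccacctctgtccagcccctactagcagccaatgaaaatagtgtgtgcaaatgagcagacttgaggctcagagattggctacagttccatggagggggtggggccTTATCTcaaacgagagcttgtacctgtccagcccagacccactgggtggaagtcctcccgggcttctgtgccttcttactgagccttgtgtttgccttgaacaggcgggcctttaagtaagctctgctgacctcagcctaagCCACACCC
Glrx5 chr12:105025701-105025940: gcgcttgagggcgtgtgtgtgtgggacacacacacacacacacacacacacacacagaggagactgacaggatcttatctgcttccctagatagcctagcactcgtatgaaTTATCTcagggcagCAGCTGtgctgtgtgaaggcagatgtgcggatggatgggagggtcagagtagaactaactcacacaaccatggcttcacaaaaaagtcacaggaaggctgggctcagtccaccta
Runx1 chr16:93129601-93129840: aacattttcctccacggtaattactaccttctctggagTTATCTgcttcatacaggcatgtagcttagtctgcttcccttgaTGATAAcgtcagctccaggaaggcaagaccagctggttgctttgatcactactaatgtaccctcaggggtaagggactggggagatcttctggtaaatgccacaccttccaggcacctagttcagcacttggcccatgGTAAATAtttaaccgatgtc
The Foxo3 region carries TGATAA on the minus strand, and the Fam210b region carries it at a pair of places. The Nprl3 region carries the KLF letters CCACACCC on the minus strand, the TEAD letters GGAATG and the CTCF letters CCANNAGGG, where N is any base. Its single AGATAA, also on the minus strand, stays in lower case because no footprint overlapped it. In the Adam10 region the KLF letters, the NFE2 letters GCTGANTCA and a minus-strand AGATAG all lay in footprints, and the NFE2 match includes the AP-1 letters TGANTCA. The Zfpm1 region pairs AGATAA with CCACACCC. The Glrx5 region pairs AGATAA with the E-box CAGCTG a few bases away. The Runx1 region holds AGATAA, then TGATAA and, near its end, TNTTTAC, a looser form of the FOXA letters TGTTTAC. Within 200 bp around the midpoint, TNTTTAC was found in 7.87% of all absent regions. The same letters read backwards were found in 11.6%.

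Replicate 1 had 34369 peaks, against 122281 in replicate 2 and 60862 in replicate 3. The authors scaled peak signal per library, and low signals were whole multiples of 1 step, so the depth of replicate 1 would be the smallest if a step is 1 count. On that reading replicates 2 and 3 were 3.22 and 1.62 times as deep as replicate 1. Promoter peaks were counted for each gene list: 29 of 34 erythroid genes had one in replicate 1, and all 34 in both replicate 2 and replicate 3. Of 34 hepatoblast genes, 5 had one in replicate 1, 27 in replicate 2 and 24 in replicate 3. Over all 21827 protein-coding genes the numbers were 11778, 14697 and 12316 in replicates 1, 2 and 3. Myeloid, megakaryocyte and neural genes also had the fewest in replicate 1, with 1, 9 and 5 of 18 myeloid genes, 2, 8 and 5 of 13 megakaryocyte genes and 5, 13 and 7 of 15 neural genes. Blood stem and progenitor genes had the fewest in replicate 3, with 10, 15 and 9 of 16. Endothelial genes were level in replicates 1 and 3, with 4, 12 and 4 of 18. The remaining lists had the fewest in replicate 1. In bulk tissue, fewer cells of a type, less open chromatin per cell and a shallower library cannot be told apart here.

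The regions absent from replicate 1 were mostly of middling strength, with a strong minority. Their median signal was 0.597 in replicate 2 and 0.595 in replicate 3, against 1.44 and 0.907 in shared distal regions. The quartiles were 0.420 and 0.896 in replicate 2 and 0.422 and 0.962 in replicate 3. In 1981 of them (11.5%) both signals lay above 1.16, the median peak signal of replicate 1, on the authors' scale. Only 27 had a lower signal under 0.0896, the lowest peak signal of replicate 1, the lower signal being the smaller of those in replicates 2 and 3. In steps of replicate 1, the median of the lower signal was 45.8, against 96.0 for the measured signal of replicate 1 in shared distal regions. Signals at the same sites differed between libraries. Promoter regions in all 3 had medians of 2.25, 5.05 and 3.07 in replicates 1, 2 and 3. Shared distal regions had 1.07, 1.44 and 0.907. A signal of replicate 2 or 3 therefore need not equal the same value in replicate 1. The ratio of replicate 3 to replicate 2 had a median of 1.05 in the absent regions and 0.666 in shared distal regions. At the distance limit, the regions just inside lay 1001 bp (Kcnh3, with signals of 1.08 and 0.478 in replicates 2 and 3), 1001 bp (Gm14453, 2.00 and 2.40) and 1002 bp (Slc38a1, 0.632 and 0.928) from a TSS. Those just outside lay at 1000 bp, near Eif4a-ps4 (0.288 and 0.277), Twsg1 (0.375 and 0.595) and Gm9850 (0.893 and 0.824).

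Replicate 1 listed few positions in these regions. A position with a rate of at most 0.05 in replicate 1 was found in 790 of the 17237 (4.58%), against 0.851% of the distal regions of replicate 2 alone and 1.03% of those of replicate 3 alone. Over all distal regions without a peak in replicate 1 it was 1.66%. A footprint of replicate 1 was found in 5. In shared distal regions, which have a peak of replicate 1, the shares were 100% and 90.3%. The low counts thus largely follow from choosing regions without such a peak. Most absent regions were also far from any peak of that library: 216 lay within 200 bp of one, and 9453 (54.8%) lay more than 10000 bp away. The promoters of their nearest genes were often open in replicate 1. The nearest protein-coding gene had a promoter peak in replicate 1 for 74.3% of the absent regions and for 68.0% of shared distal regions.

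Absence from replicate 1 was most frequent among weak regions but reached strong ones. Distal regions of replicates 2 and 3 were split into quintiles of the lower percentile, and 77.4% of the weakest quintile, then 70.1%, 63.8% and 56.4%, had no peak in replicate 1. In the strongest quintile 37.7% had none (95% Wilson interval 36.4 to 38.9, counting error only, since regions are not replicates). For promoter regions with the same bounds, the share in the strongest quintile was 3.67% (3.32 to 4.05). That quintile ran from a percentile of 72.0 to 99.9 and held 10416 promoter and 5658 distal regions. Strength within it was not matched between them. Over all quintiles 20.9% of promoter regions had no peak in replicate 1. When each library was limited to equal numbers of its strongest peaks, 5142 absent regions were left, 40.7% of the distal regions of replicates 2 and 3.

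**Figure D1:**
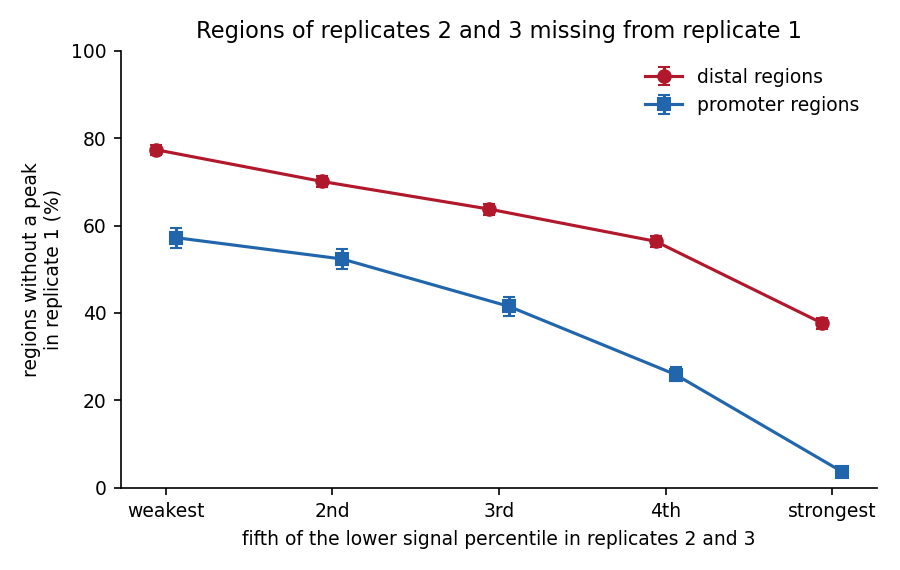
Percentage of regions of replicates 2 and 3 without a peak in replicate 1 (y axis) by quintile of the lower signal percentile (x axis), for distal regions (circles) and promoter regions (squares). Bars are 95% Wilson intervals, which cover counting error only. The distal share fell with signal to 37.7% in the strongest quintile, where the promoter share was 3.67%. Strength within a quintile was not matched between distal and promoter regions.

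The 20 highest-ranked regions were strong in both libraries. Their signals ran from 4.02 to 6.86 in replicate 2 and from 6.46 to 10.1 in replicate 3. By signal, all 20 were higher in replicate 3 than in replicate 2, with a median ratio of 1.65. Of all absent regions 55.3% were. By percentile within each library, 91.3% of all absent regions were higher in replicate 2, and the 20 went both ways. Rank 1 (Foxo3) had percentiles of 93.4 and 95.4 in replicates 2 and 3, and rank 3 (Glrx5) had 94.5 and 93.1. The same signals chose the 20, so this is a description. On the authors' scales, the lower signal of each stood at the 88.2 percentile or above among the peaks of replicate 1. Those scales were not matched between libraries, so this is not the rank such a region would have there. The nearest gene had a promoter peak in replicate 1 for 19 of 20, Gfi1b being the exception. Listed positions of replicate 1 lay inside 7 of the 20, covering 1 to 49 bp, and the lowest false discovery rate was 0.0108, near Fam53b.

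Rank 1 lay in an intron of Foxo3, which encodes a forkhead transcription factor, 11376 bp from its TSS. Its signal was 5.57 in replicate 2 and 10.1 in replicate 3, and the nearest peak of replicate 1 lay 8401 bp away. The Foxo3 promoter had signals of 4.98, 17.3 and 13.9 in replicates 1, 2 and 3, so the gene's promoter was open in the library that lacked the intronic region. Rank 2 lay in an intron of Fam210b, a mitochondrial protein tied to haem synthesis, with signals of 5.36 and 7.89 in replicates 2 and 3. In replicate 1, 16 bases there were listed, the lowest rate being 0.0399. Rank 3 lay in an intron of Glrx5, a glutaredoxin needed for iron-sulfur clusters, with signals of 6.86 and 7.66 in replicates 2 and 3. The Glrx5 region printed above is another one, at rank 32, and that gene was nearest to 5 absent and 2 shared regions.

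A pair of the 20 was nearest to Nprl3, a gene whose introns hold enhancers of the neighbouring alpha-globin genes in mouse. The intronic region had signals of 4.86 and 9.14 in replicates 2 and 3, and the other, 1354 bp from the TSS and outside the gene, had 4.94 and 6.55. Neither held a listed position of replicate 1. Gfi1b, a repressor needed for red cell and platelet lineages, had an intronic region with signals of 6.58 and 6.92 in replicates 2 and 3. Its promoter was without a peak in replicate 1 and had 2.35 and 2.56 in replicates 2 and 3. Gypc, which encodes glycophorin C of the red cell membrane, had 4.85 and 7.15 in an intron. Picalm, a clathrin adaptor that aids transferrin uptake, had 4.37 and 7.46 at 69533 bp from its TSS. Other regions were nearest to Phospho1 (a phosphatase), Med13l (Mediator), Clk3 (a splicing kinase), Adam10 (a surface protease), Arrdc2, Klf16, Cd24a, Nme3, Naprt, Rexo1 and Fam53b.

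**Figure D2:**
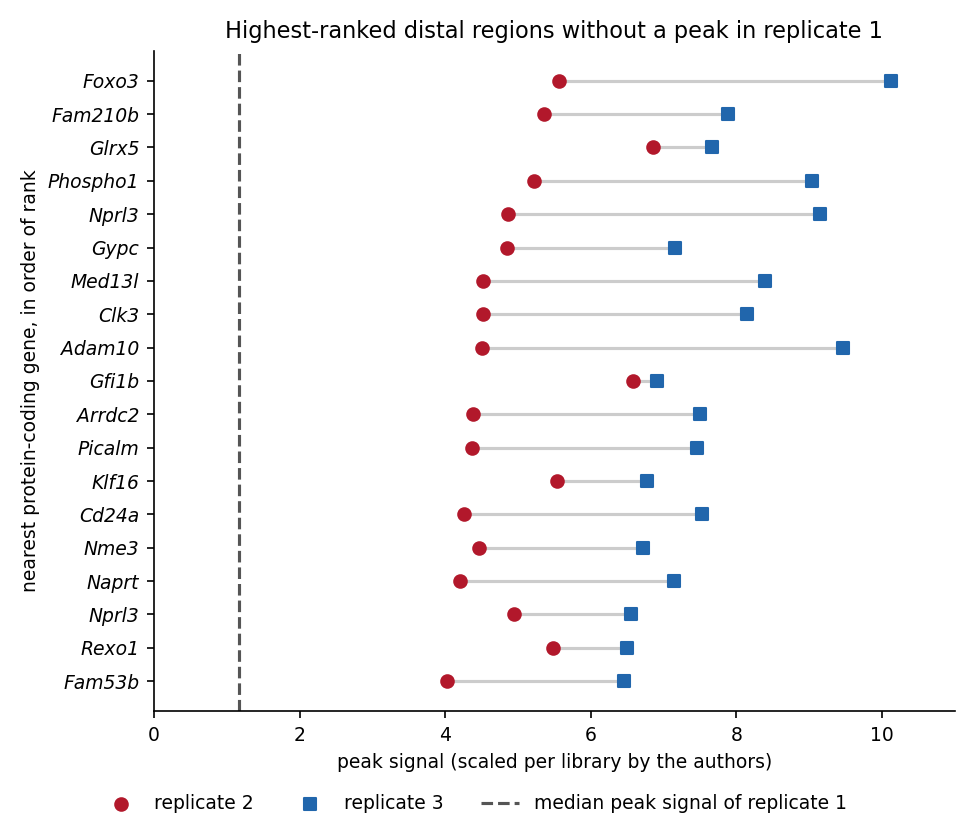
Peak signal as scaled per library by the authors (x axis) in replicates 2 (circles) and 3 (squares) for 19 of the 20 highest-ranked regions without a peak in replicate 1, by nearest protein-coding gene in order of rank (y axis). The dashed line is the median peak signal of replicate 1, 1.16, on a scale not matched to those of replicates 2 and 3. All 19 lie to its right in both libraries and are higher in replicate 3.

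GATA letters were about as common as not in the absent regions and less common in shared ones. Within 200 bp around the midpoint, AGATAA was present on either strand in 27.2% of the absent regions (26.6 to 27.9), against 14.0% of shared distal regions (13.4 to 14.7) and 13.2% of all distal regions. A broader search took 4 spellings of the site, in which GATA has an A or T before it and an A or G after it, and found a match in 50.3%, against 30.3% and 30.1%. The same letters read backwards, a string of equal composition, were found in 20.1% and 15.9%. By quintile, any of the 4 spellings was found in 34.9%, 41.9%, 52.1%, 61.3% and 77.1% of the absent regions, weakest first, and in 18.8%, 20.3%, 21.8%, 25.4% and 47.5% of shared distal regions. Among the 100 highest-ranked absent regions 88 held one.

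The share depended on which libraries were asked for a peak. With replicate 2 left out, 51.6% of the distal regions of replicate 3 absent from replicate 1 held a GATA spelling, against 30.5% of those also in replicate 1. With replicate 3 left out, the shares were 28.3% and 27.6%. That set had 73171 absent regions, and 99.4% of its weakest quintile had no peak in replicate 1. Within quintiles of replicate 2 signal, weakest first, the shares were 25.9% against 17.0%, 19.6% against 17.4%, 25.7% against 18.3%, 33.5% against 21.5% and 48.2% against 30.2%. The 3 weakest held 100, 380 and 650 regions with a peak in replicate 1, and in the weakest and the next the intervals met (25.2 to 26.5 against 10.9 to 25.5, and 19.0 to 20.2 against 13.9 to 21.5). Within quintiles of replicate 3 signal the shares were 36.8% against 19.0% in the weakest and 78.8% against 44.8% in the strongest.

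Some other letters of blood factors were also more frequent in the absent regions. The E-box CAGCTG differed little, at 17.9% of them and 16.6% of shared distal regions. In the strongest quintile it was found in 18.3% and 18.9%. CCACACCC of the KLF family was found in 6.67% of the absent regions and 4.14% of shared distal regions. GCTGANTCA of NFE2 was found in 4.09% and 2.15%, and TGTGGTT of the RUNX family in 7.16% and 5.08%. Letters of liver factors were also searched. CAAAGTCCA of HNF4 was found in 89 absent regions (0.516%) and 0.218% of shared ones, TGTTTAC of FOXA in 3.25% and 2.06%, and GTTAATNAT of HNF1 in 0.551% and 0.236%. The FOXA letters read backwards were found in 3.24% and 2.59%, so the FOXA share in the absent regions was near that of a string of equal composition. The shorter HNF4 letters CAAAGNNCA were found in 6.17% and 4.42%, and TTGCNNAA of the CEBP family in 8.48% and 7.85%. The absent regions were poorer in C and G, with a mean of 51.5% against 54.4%, and the part of composition in these shares was not tested.

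CTCF letters went the other way. CCANNAGGG was found in 7.39% of the absent regions (7.01 to 7.79), against 16.3% of shared distal regions (15.6 to 17.0) and 7.85% of all distal regions. The weakest quintile had them in 8.27%, against 18.2%, and the strongest in 5.87%, against 11.1%. SP1, ETS and NRF1 letters, which are common in promoters, were also less frequent: the shares were 1.85% against 3.13%, 0.453% against 0.798% and 0.145% against 0.617%. Read from the motif to the library, 75.2% of distal regions of replicates 2 and 3 with AGATAA had no peak in replicate 1, against 57.0% of those without it. With the CTCF letters the share was 41.4%, against 63.4% without them.

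**Figure D3:**
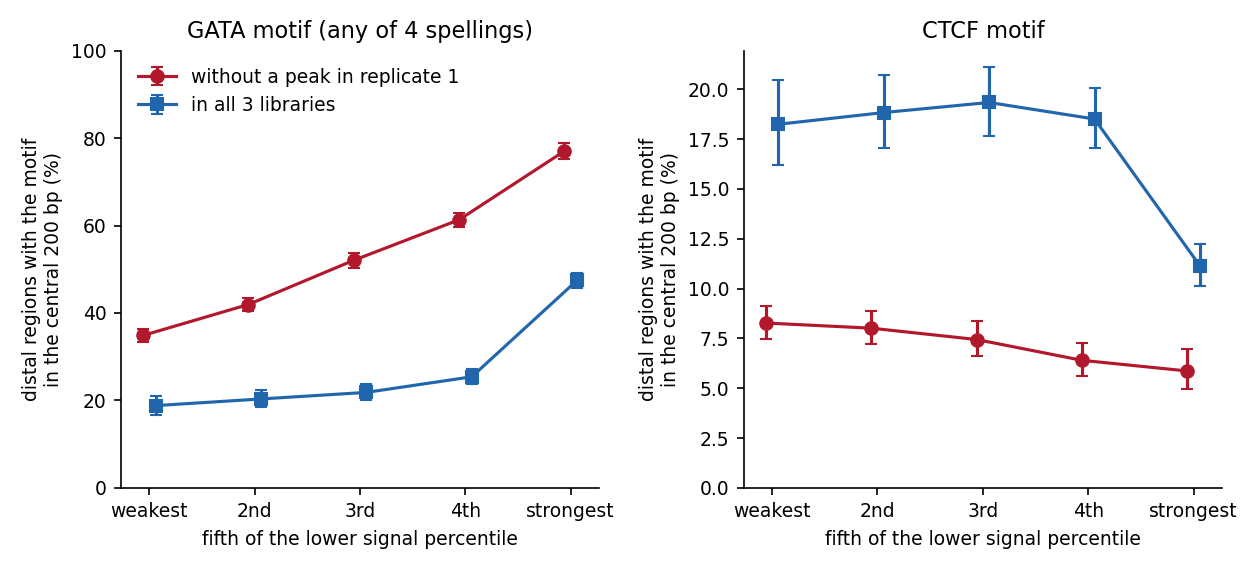
Percentage of distal regions with the GATA motif in any of 4 spellings (left) or the CTCF motif (right) in the central 200 bp (y axes, which differ in range), by quintile of the lower signal percentile in replicates 2 and 3 (x axes). Circles are regions without a peak in replicate 1, squares regions in all 3 libraries, and bars 95% Wilson intervals for counting error. In the strongest quintile 77.1% against 47.5% held the GATA motif and 5.87% against 11.1% the CTCF motif.

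Base composition moved with absence from replicate 1 as well. The absent regions had a mean of 3.26 CpG sites in the central 200 bp, against 5.57 in shared distal regions. With 0 to 1 CpG, 75.0% of distal regions of replicates 2 and 3 had no peak in replicate 1, and with over 10 CpG 19.9%. Within each CpG class the share was higher with AGATAA than without it. It was 83.9% against 71.6% at 0 to 1 CpG, 69.2% against 55.5% at 4 to 6 CpG and 30.1% against 19.4% at over 10 CpG. In the last class 83 regions held the letters, and the intervals met (21.3 to 40.7 and 17.5 to 21.4). With the CTCF letters it was lower in each class, 58.2% against 77.4% at 0 to 1 CpG and 12.9% against 20.6% at over 10 CpG, where the intervals also met.

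**Figure D4:**
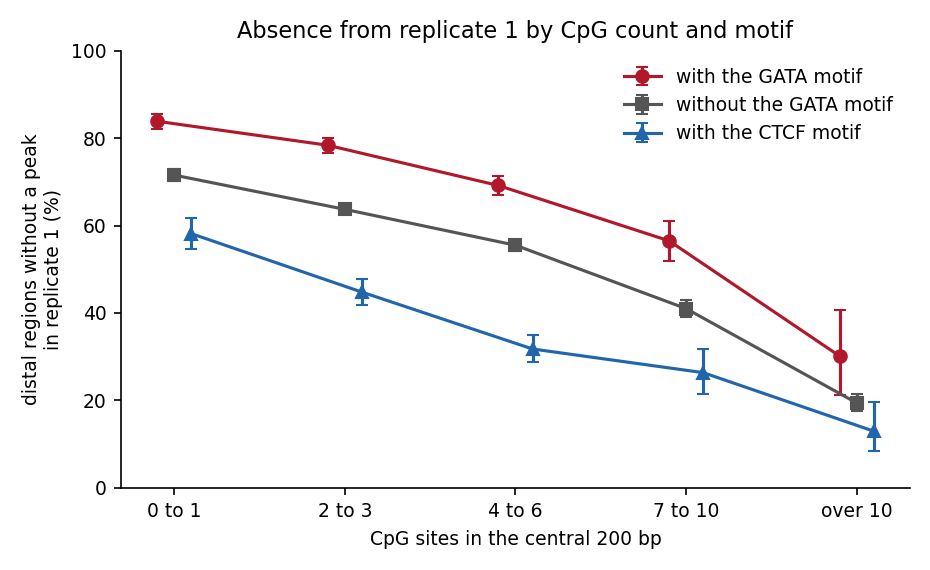
Percentage of distal regions of replicates 2 and 3 without a peak in replicate 1 (y axis) by the number of CpG sites in the central 200 bp (x axis), for regions with the GATA motif AGATAA (circles), without it (squares) and with the CTCF motif (triangles). Bars are 95% Wilson intervals for counting error. At 0 to 1 CpG the shares with and without the GATA motif were 83.9% and 71.6%, and with the CTCF motif 58.2%.

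Shared distal regions, none of which is among the absent ones, differed by motif in the same libraries. Those with AGATAA and no CTCF letters (1397) had median signals of 0.918, 2.16 and 2.53 in replicates 1, 2 and 3. Those with CTCF letters and no AGATAA (1653) had 1.22, 1.32 and 0.761. The median ratio of replicate 1 to replicate 3 was 0.344 with AGATAA and 1.56 with CTCF letters, and that of replicate 1 to replicate 2 was 0.415 and 0.929. The ratio of replicate 3 to replicate 2 was 1.10 and 0.603. In the absent regions that last ratio was 1.27 with AGATAA and 0.905 with CTCF letters, and 74.2% and 37.0% of them were higher in replicate 3. CpG content and motif moved together with the absence. Depth is 1 value per library and cannot be told apart from other traits of replicate 1. The parts of depth, CpG content and motif in the absence were not tested.

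Footprints were found in most of the absent regions. Replicate 2 had at least 1 in 91.8% of them, against 99.2% of shared distal regions and 70.1% of all distal regions with a peak in replicate 2. Replicate 3 had at least 1 in 82.8%, against 94.0% of shared distal regions and 80.7% of all distal regions with a peak in replicate 3. Both libraries had one in 13268 (77.0%), and 417 (2.42%) had none in either. The mean number per absent region was 2.60 in replicate 2 and 1.90 in replicate 3. Replicate 2 had 342756 footprints in all, replicate 3 had 156638 and replicate 1 had 89836, and the part of depth in these shares was not tested.

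The footprints lay over some letters more than over others. In the absent regions, footprints of replicate 2 covered 11.4% of the bases and the centres of 17.7% of 6485 AGATAA matches (16.8 to 18.6), against 5.94% of the reversed string (4.80 to 7.35). In replicate 3 they covered 7.81% of the bases, 19.0% of AGATAA centres and 5.87% of reversed ones. CTCF letters were covered at 39.0% of their centres in replicate 2 and 24.2% in replicate 3, against 8.14% and 5.87% for the reversed string. In shared distal regions, CTCF centres were covered at 75.0% and 56.3% and AGATAA centres at 32.9% and 26.3%, where footprints covered 24.5% and 15.7% of the bases. NFE2 letters had 31.9% and 40.5% in the absent regions. FOXA letters were covered less than the average base, at 2.73% in replicate 2 and 4.16% in replicate 3. HNF4 letters, with 97 matches, had 10.3% and 11.3%, with wide intervals (5.70 to 17.9 in replicate 2). Among the 20 highest-ranked regions, 19 held 1 of the 4 GATA spellings anywhere and 15 held one that overlapped a footprint. Over all absent regions 23.2% held such a match, and over shared distal regions 16.5%.

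Absent regions lay more often in introns. Introns held 58.1% of them, sequence between genes 36.7% and exons 5.24%, against 48.3%, 43.9% and 7.76% of shared distal regions. The median distance to the nearest TSS of any gene was 10964 bp, against 10187 bp, and 8.89% lay more than 50000 bp away, against 7.11%. Over all distal regions 48.9% lay in introns, the median distance was 11540 bp and 11.7% lay more than 50000 bp away. Bases marked as repeats made up 15.0% of the central sequence, against 10.8% in shared distal regions and 20.4% in all distal regions. The nearest protein-coding genes numbered 8017 of 21827. Of these, 4133 had a single absent region and 719 had 5 or more.

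The 10 genes nearest to the most absent regions had 16 to 26 each, spread over 30.4 to 1206 kb. Pde4d, which encodes a cyclic AMP phosphodiesterase, was nearest to 26 over 1206 kb, 25 of them inside the gene, beside 7 shared regions. Myc, a growth-promoting transcription factor, was nearest to 24, of which 21 lay in the neighbouring non-coding gene Pvt1, beside 3 shared regions. Their promoters were open in replicate 1, with signals of 0.918 (Pde4d) and 2.08 (Myc). Cited2, a transcriptional cofactor on the erythroid list, was nearest to 16 over 1156 kb, and its best region (rank 227) had signals of 2.08 and 4.72 in replicates 2 and 3 at 132698 bp from the TSS. Med13l, Agpat4, Zfp217 and Gse1 were each nearest to 18, Zfp608 to 17 and St3gal4 to 16.

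Short, dense clusters lay at Firre and St3gal4. The 19 regions for which Olfr1324 was the nearest protein-coding gene all lay within 57.0 kb (chrX:50566441-50623440) inside Firre, a long non-coding RNA gene. Their signals ran from 0.361 to 1.28 in replicate 2 and from 0.388 to 2.02 in replicate 3. None held AGATAA, 1 held the CTCF letters and none had a listed position of replicate 1. Their sequences resembled each other: in the median region 38.3% of the 20-base words recurred in another region of the cluster, against 0% for each of the other 9 genes named by count. Reads from such repeats can be placed ambiguously, and the effect on these peaks was not tested. At St3gal4, a sialyltransferase gene, 16 regions lay within 30.4 kb (chr9:35093781-35124220) and 15 of them inside the gene. They were among the weakest, with a median lower percentile of 0.471, against 42.1 over all absent regions. None held AGATAA, and 4 had footprints in both libraries.

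Genes of the red cell list were nearest to 180 distal regions of replicates 2 and 3, and 123 of these (68.3%, interval 61.2 to 74.7) had no peak in replicate 1, against 61.0% over all genes. In the strongest quintile 30 of 73 had none (41.1%), against 37.7% over all genes. At least 1 absent region lay nearest to 27 of the 34 genes, and 22 of these genes had a promoter peak in replicate 1. Zfpm1 had 14 absent and 6 shared regions. Its best (rank 23) had signals of 4.75 and 6.32 in replicates 2 and 3, and its promoter had 10.1, 31.9 and 19.0 in replicates 1, 2 and 3. Aqp1, the water channel of red cells, had 9 absent regions and 1 shared, with signals of 3.62 and 4.33 at the best, which held AGATAA in a footprint.

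Globin genes had 14 absent regions among 19 (73.7%, interval 51.2 to 88.2), against 61.0% over all genes. Hbb-bt, an adult beta-globin gene, was nearest to 4, of which the best had signals of 0.868 and 2.85 in replicates 2 and 3. Hba-a2, an adult alpha-globin gene, was nearest to 3, with 0.743 and 1.90 at the best, and Hbb-bs to 2, with 1.54 and 1.23. None of these 3 genes was nearest to a shared region. Near-identical gene copies stand in both clusters, so reads there may be split or dropped, and the effect on these peaks was not tested. Of the haem and iron genes, 43 of 67 regions (64.2%, interval 52.2 to 74.6) were absent. Both intervals held the share over all genes. Fech, the enzyme that inserts iron into haem, had 6 absent regions and 1 shared, and its best had signals of 2.26 and 8.73 in replicates 2 and 3. Alad, an early enzyme of the same pathway, had 7 absent and 4 shared, with 1.22 and 1.36 at the best.

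Hepatoblast genes were nearest to 52 distal regions of replicates 2 and 3, of which 37 (71.2%, interval 57.7 to 81.7) had no peak in replicate 1. The share over all genes, 61.0%, lay inside that interval. Only 3 of the 52 were in the strongest quintile, and all 3 had a peak in replicate 1. With equal numbers of the strongest peaks, 5 of 16 hepatoblast regions (31.3%) and 71 of 123 erythroid ones (57.7%) were absent, against 40.7% over all genes. The median lower percentile of the absent hepatoblast regions was 33.5, against 58.1 for the erythroid ones. Dlk1, a surface protein of hepatoblasts, had 5 absent and 2 shared regions, with 0.663 and 1.14 at the best. Prox1, a homeobox factor of hepatoblast growth, had 5 absent and 0 shared regions, with 0.764 and 0.928, and the best held AGATAA in a footprint. Foxa2, a pioneer factor of liver genes, had 4 absent regions and 1 shared, with 0.497 and 0.699. Of the mature hepatocyte list 11 of 23 regions (47.8%) were absent, with a median lower percentile of 58.0 and with Ass1 and Fah, enzymes of arginine and tyrosine metabolism, at 3 and 2.

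Among the other lists the shares ran from 45.8% (myeloid, 11 of 24) to 74.3% (endothelial, 26 of 35). The share over all genes, 61.0%, lay inside the interval of each. Blood stem and progenitor genes had 50 of 89 absent (56.2%), and 25 of these 50 held AGATAA, beside 27.2% over all genes. That was the highest share of any list. The others ran from 0% (myeloid) to 37.5% (megakaryocyte), with 32.5% for erythroid, 23.3% for haem and iron and 7.14% for globin genes. Runx1, a factor that founds blood stem cells, had 11 absent and 8 shared regions, and its best (rank 215), 303452 bp from the TSS, had signals of 2.12 and 6.98 in replicates 2 and 3. Fli1 had 8 absent and Kit, the stem cell factor receptor, 6, with signals of 0.601 and 0.865 at Fli1 and 0.583 and 0.796 at Kit. Kdr, an endothelial receptor, had 8 absent and 1 shared, and its best had 1.38 and 2.57 with AGATAA in a footprint. Megakaryocyte genes had 16 of 23 absent, led by Vwf and Thbs1 with 5 each, lymphoid 10 of 16, led by Ebf1 with 5, and muscle 15 of 22, led by Mef2c with 8. Mesenchymal genes had 17 of 32, neural 12 of 21 and germline 12 of 20.

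**Figure D5:**
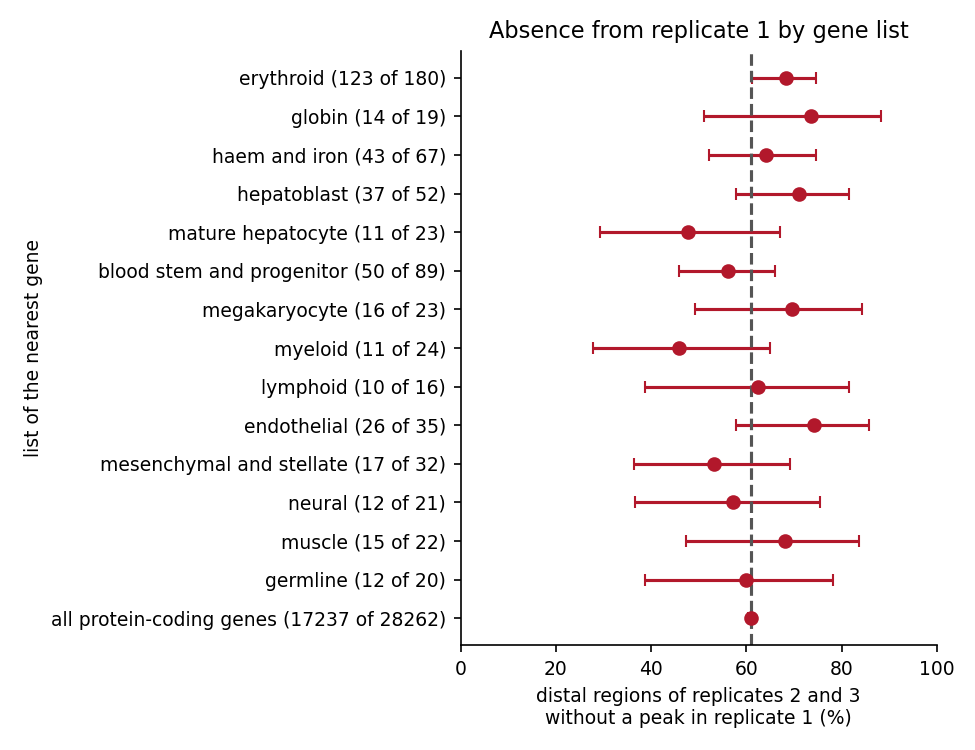
Percentage of distal regions of replicates 2 and 3 without a peak in replicate 1 (x axis), by the list of the nearest protein-coding gene (y axis), with absent regions of all such regions in brackets. Points are shares, bars 95% Wilson intervals for counting error, and the dashed line is the share over all genes, 61.0%. Erythroid regions stood at 68.3% and hepatoblast regions at 71.2%. Every interval except the erythroid one (61.2 to 74.7) held the dashed line.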

How the data were processed

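DNase-seq peaks, footprints and false discovery rates of 3 libraries of 1 group were used. Peaks were called by the authors on each library's filtered alignments in mm10, per the text deposited with each library, while aligner, caller and versions were not given in the sources used here. Peak signal is the deposited signal column, scaled per library by the authors. Signals below 2 were whole multiples of 1 step within 0.02 steps, but the labels do not state that a step is a count. The deposited false discovery rate file gives a q-value per interval and lists only values of at most 0.05. Footprint files, as deposited, carry only the value 0.01 beside each position, so only their positions were used. The longer of 2 deposited peak lists per library was the main one.

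Peaks were merged with Python 3.11.15, numpy 2.4.6 and pandas 2.3.3. A region's signal was that of its highest peak, and its percentile was taken among all peaks of that library. TSSs came from GENCODE M21 basic, sequence from the RefSeq copy of mm10 (GRCm38.p6), and 23 motifs were searched on both strands in the central 200 bp. Intervals are Wilson 95% (scipy 1.17.1). No test was run: with 1 group there is no contrast, and regions are not replicates. Merging, distances, footprint overlap and the motif search were checked on simulated data. Alternatives were stricter peaks, equal peak numbers, coverage of 50% of the region, limits of 2500 and 5000 bp and leaving out each library.

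Named regions were the 20 highest-ranked, the best-ranked regions of the 3 genes per list (for printed sequences, the best-ranked with a motif in a footprint) and the 10 genes nearest to most absent regions, and the 3 regions on either side of the 1000 bp limit. Lists of 254 genes in 14 groups, all of them annotated, were used. The members and lists were chosen with earlier results of these data known, and the search for 4 GATA spellings was added after the first motif shares were seen. Values of 1 of the 20 highest-ranked regions are not reported here.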

Additional observations from a re-analysis of the deposited data

How the results depend on the processing

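The number of absent regions depended on the peak lists. It was 11200 with the stricter lists, 5142 with peak numbers made equal and between 25964 and 73171 when replicate 2 or 3 was left out. Leaving out replicate 1 removes the absence itself and gives all 28306 distal regions in a merge of replicates 2 and 3 alone, against 28262 in the merge of all 3 libraries. Under the other 7 alternatives it stayed within 1.5 times the 17237 reported. The share without a peak in replicate 1, 61.0%, was 66.0% with stricter peaks, 40.7% with equal numbers, 63.9% when a peak had to cover at least 50% of the region, 61.6% at over 5000 bp from a TSS and 61.6% with the comprehensive annotation. Without replicate 2 or replicate 3 it was 70.1% and 84.7%. The hepatoblast share was 31.3% with equal numbers and between 80.0% and 90.9% without replicate 2 or 3. The erythroid share was 57.7% with equal numbers, 60.5% for any erythroid gene within 50000 bp, and between 73.5% and 86.9% without replicate 2 or 3. AGATAA was in 11.6% to 33.5% of the absent regions over its alternatives, lowest without replicate 3. Any GATA spelling ran from 28.3% to 59.9%, beside 27.6% to 34.6% of shared distal regions, and the CTCF letters from 6.47% to 8.66%, beside 15.5% to 18.4%. Leaving out replicate 1, which pools absent and shared regions, gave 10.8% for the CTCF letters. HNF4 letters ran from 0.272% to 0.666%. No paired analysis was possible because the 3 libraries form 1 group.

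Depth in reads is unknown, so a missing peak does not show closed chromatin. A nearest gene need not be the gene a region acts on. Several alternatives, the 4 GATA spellings and the comparison by 1 library's signal were chosen after seeing the data.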

Other observations

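Distal regions of the other patterns held different letters. Of 8152 regions found in replicate 3 alone, 49.8% held 1 of the 4 GATA spellings and 4.76% the CTCF letters. Of 55799 found in replicate 2 alone, 21.9% held a GATA spelling and 6.49% the CTCF letters. The 2199 regions of replicates 1 and 2 without a peak in replicate 3 held a GATA spelling in 16.5%, near the 14.7% for the reversed string, and the CTCF letters in 15.1%. The 1179 found in replicate 1 alone held them in 15.6% and 7.55%.

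Of 3945 promoter regions absent from replicate 1 30.0% held a GATA spelling, against 10.4% of 14947 promoter regions in all 3 libraries. AGATAA was in 13.8% and 3.16% of them, and the CTCF letters in 5.91% and 5.35%. Their mean numbers of CpG sites were 6.88 and 17.1.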
